A study of Mus musculus with 20 samples.

Results

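The classical complement pathway was followed in the lungs of mouse dams through 8 genes: C1qa, C1qb, C1qc, C1ra, C1s1, C4b, C2 and Serping1. They were found on the array by gene name, with older names accepted (C1s for C1s1, C1r for C1ra). They are represented by 11 of the 41174 different probes of the array, and all 11 were among the 30143 probes bright enough to be tested. The animals were female, time-mated, nulliparous C57BL/6BomTac mice. During pregnancy they received carbon black Printex 90, a soot-like nanoparticle, or the Milli Q water vehicle alone, through the trachea on gestation days 7, 10, 15 and 18. Summed over the 4 instillations the dose was 11 µg (Low, 2.75 µg each time), 54 µg (Medium, 13.5 µg) or 268 µg (High, 67 µg). Each of the 4 groups held 5 dams, numbered as in the labels, and lungs were taken 26 to 27 days after exposure, once the pups were weaned. All groups, controls included, had been pregnant, had been instilled and had raised litters, so no value here describes an untreated or virgin lung.

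In the classical pathway, the recognition molecule C1q binds antibody on a surface, or pentraxins, or altered cells. This activates the proteases C1r and C1s, which cleave C4 and then C2, and the joined fragments form the enzyme that cleaves C3. C1 inhibitor, encoded by Serping1, is a serpin that stops C1r and C1s. Most complement proteins of plasma come from the liver, whereas C1q is made mainly by macrophages and dendritic cells in tissues.

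Lung RNA of each dam carried the dye Cy5 and a commercial universal reference RNA carried Cy3; both were put on 1 array per dam, with no dye swap. The value used below is the log2 ratio of lung over reference, averaged over the spots of a probe. A ratio compares dams for 1 probe, but not 1 gene's abundance with another's, since each gene has its own level in the reference. Whole lung is a mixture, so more cells of a type and more RNA per cell cannot be told apart. The surfactant and airway markers of lung epithelium lay far above the reference on every array, with list means of 3.76 to 4.67 on the log2 ratio scale over 10 genes. All 11 probes were well above background in both channels on all 20 arrays, and none was saturated. Correlations of the log2 ratio between any pair of arrays lay between 0.948 and 0.987 across probes. On slides 1 to 5, which held the controls, each group had its own fixed array position, so position and group cannot be told apart, and slide 6 held Medium 49 and 50 alone.

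The letters below show what each of several measurements rests on. The C1q chains, C4b and C1 inhibitor were each read by a single oligonucleotide of 60 bases, given here 5′ to 3′ as the array files hold it, all on the minus strand of mm7, the build of those files.
C1qa (chr4:136274931-136274990): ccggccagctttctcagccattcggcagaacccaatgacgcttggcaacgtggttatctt
C1qb (chr4:136259100-136259159): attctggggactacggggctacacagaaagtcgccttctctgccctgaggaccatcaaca
C4b (chr17:32815561-32815620): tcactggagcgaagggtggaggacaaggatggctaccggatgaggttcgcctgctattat
Serping1 (chr2:84609527-84611033): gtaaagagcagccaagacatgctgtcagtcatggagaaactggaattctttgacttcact
The Serping1 probe spans 1507 bases of the genome, so it crosses at least 1 splice junction. The probe of C1qc lay at chr4:136268288-136268347, and the genes of the 3 chains therefore sit side by side on chromosome 4. The probes given as C1ra (chr6:124605948-124606007, plus strand) and C1s1 (chr6:124555678-124555737) both lie on chromosome 6. C4b and C2 (chr17:32958754-32958813) share a stretch of chromosome 17.

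C1r, C1s and C4 have near copies in the mouse, which limits what some probes can tell apart. A second C1s1 probe (chr6:124556317-124556376) overlaps the probe of the paralog C1s2 (chr6:124650521-124650580) over 42 bases, of which 36 are identical (85.7%). The overlapping stretches are given with the differing bases in capitals.
C1s1 second probe: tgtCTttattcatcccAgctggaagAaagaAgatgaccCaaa
C1s2: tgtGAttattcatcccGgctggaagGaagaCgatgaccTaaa
A further probe named C1r in the files (chr6:124600159-124600218, plus strand) was designed on the mRNA record AF459018, which the files describe as C1rb, so it is given apart from C1ra.
C1r probe of AF459018: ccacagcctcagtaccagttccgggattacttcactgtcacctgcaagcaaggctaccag
The probe given as C1ra is also named C1r in the files, so both may read the same gene. In mm7 both C1r probes lie on the plus strand between the C1s1 and C1s2 probes. In GRCm38.p6 the C1ra start lies at a lower position than the C1s1 starts (upstream sequence from 124512371 and 124542322). The probe given as C1ra thus maps on the side of C1s1 where the probe described as C1rb lies, not on that of the C1ra start. Its position therefore goes with C1rb rather than C1ra. Whether it reads C1rb, C1ra or both was not tested, and the name C1ra is used below as a label only. The C1s2 probe itself did not reach the brightness required for testing. The C4a probe gave 0.00 ± 0.06 (SE, 5 dams against 5) for High minus Control on the log2 ratio scale (limma, adjusted p = 0.986).

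Upstream sequence was given by RefSeq, build GRCm38.p6, for 4 of the 8 genes: C1qb, C1qc, C1ra and C1s1, the last with 2 starts. The 250 bases before the start are shown for both C1q chains, whose signals moved together, and for C1ra. The only call of the set is given under the name C1ra, but this window need not belong to the gene that the called probe reads. Capitals mark GAGGAA or its reverse complement, the core bound by PU.1, an ETS factor of macrophages.
C1qb (chr4:136886201-136886450, minus strand): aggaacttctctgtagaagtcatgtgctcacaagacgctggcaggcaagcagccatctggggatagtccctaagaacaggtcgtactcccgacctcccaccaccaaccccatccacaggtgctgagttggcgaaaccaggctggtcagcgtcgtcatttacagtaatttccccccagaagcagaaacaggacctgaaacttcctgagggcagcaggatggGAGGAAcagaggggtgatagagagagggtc
C1qc (chr4:136892915-136893164, minus strand): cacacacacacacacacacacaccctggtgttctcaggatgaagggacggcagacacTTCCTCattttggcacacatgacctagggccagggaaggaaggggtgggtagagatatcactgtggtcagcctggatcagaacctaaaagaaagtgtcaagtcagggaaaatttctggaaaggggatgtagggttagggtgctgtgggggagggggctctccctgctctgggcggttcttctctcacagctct
C1ra (chr6:124512371-124512620, plus strand): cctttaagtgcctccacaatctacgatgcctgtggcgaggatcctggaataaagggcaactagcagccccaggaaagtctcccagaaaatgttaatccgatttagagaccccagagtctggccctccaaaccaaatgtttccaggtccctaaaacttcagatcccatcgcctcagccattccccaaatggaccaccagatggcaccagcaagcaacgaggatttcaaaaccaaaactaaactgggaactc
The core begins 30 bases before the start of C1qb and 193 bases before that of C1qc. It was not found in the C1ra window or in either C1s1 window. Of 32851 windows of this length upstream of mouse genes, 23.3% hold it on at least 1 strand. TTCNNNGAA, the palindrome read by STAT factors, occurs in 7.02% of windows. An interferon response element core occurs in 2.98% and TTGCNNAA, read by C/EBP factors, in 9.56%, each searched on both strands. None of these 3 was found in the windows of C1qb, C1qc or C1ra, and TTGCNNAA was found in 1 of the C1s1 windows, 242 bases before that start. The matches overlap no other motif searched.

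At the high dose the 11 probes all lay above the controls on average, but 1 of them, the probe given as C1ra, passed the test. The differences for High minus Control ran from 0.05 to 0.54 on the log2 ratio scale, with a median of 0.26 over the 11 probes and 0.36 over the brightest probe of each gene, against a median of -0.0058 over all 30143 probes. A difference above 0 was found for 48.1% of all probes. With limma and Benjamini-Hochberg adjustment over all probes, 402 probes (1.33%) had an adjusted p under 0.05, 211 of them higher (0.7%) and 191 lower. At an unadjusted p under 0.05, 7 of the 11 probes were higher, against 8.53% of all probes. For none of the 11 did all 5 High dams lie above all 5 controls, which held for 1.83% of all probes. No probe of the set was lower.

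**Figure D1:**
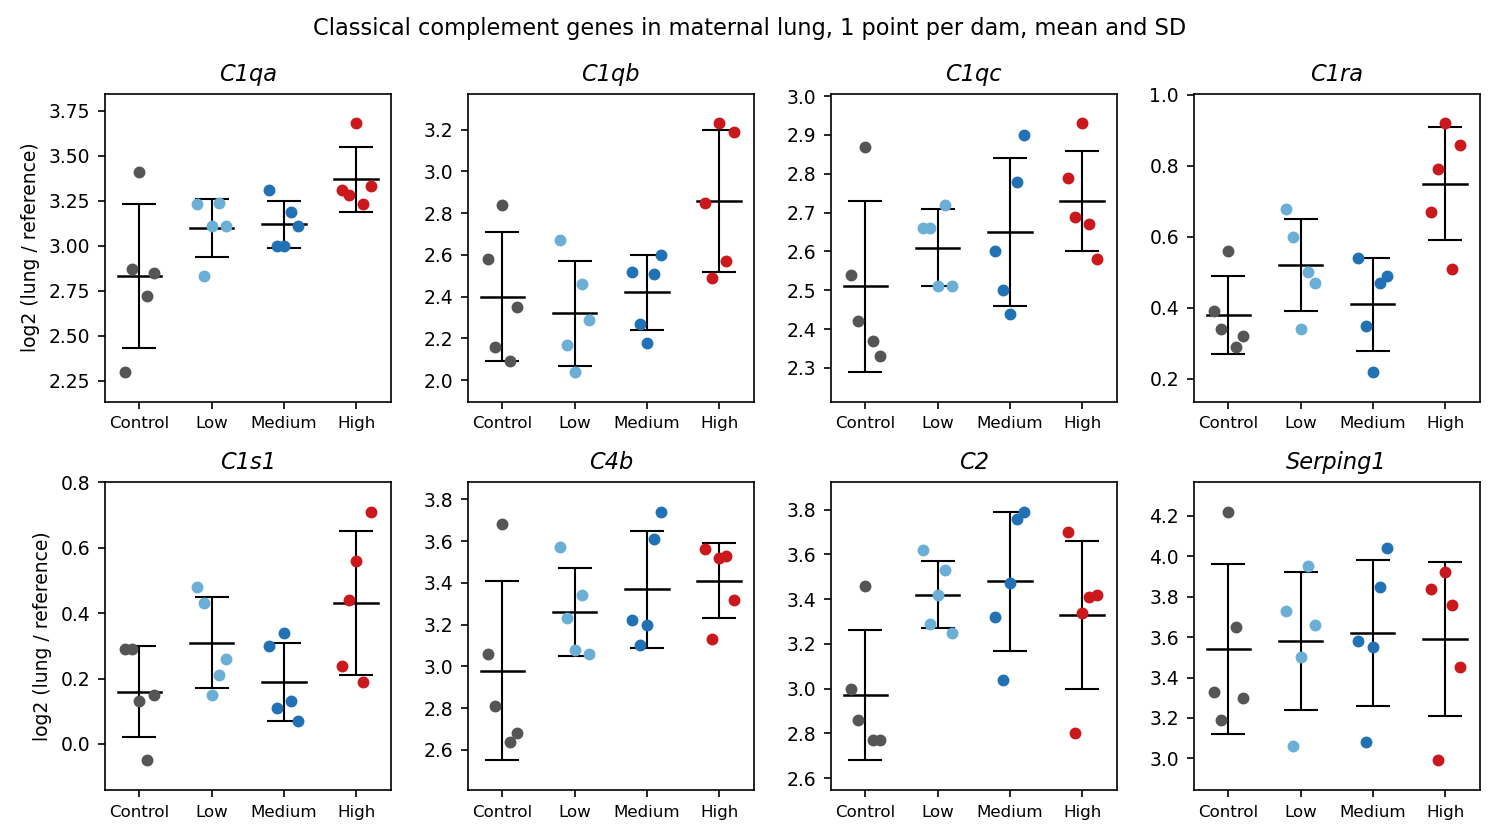
Log2 ratio of lung over reference in each dam, for the brightest probe of each gene; points are dams, horizontal lines are group means and bars are 1 SD (n = 5 dams a group), and each panel has its own axis. For C1ra, 4 of 5 High dams lie above the highest control at 0.56, and Control 14 is the highest control in every panel but C1s1.

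The recognition chains come first. C1q is built of A, B and C chains in equal number, and the ratios of all 3 were highest on average at the high dose. C1qa read 2.30, 2.87, 3.41, 2.72 and 2.85 in Control 4, 7, 14, 15 and 18, and 3.31, 3.28, 3.68, 3.23 and 3.33 in High 60, 62, 63, 64 and 65. Thus 4 of the 5 controls lay below every High dam, while Control 14 lay above 4 of them. Low dams ran from 2.83 to 3.24 and Medium dams from 3.00 to 3.31. The High mean was 0.54 ± 0.14 (SE) above Control, 1.45-fold, with an adjusted p of 0.0626 by limma (95% interval 0.24 to 0.83), which missed the threshold. Without Control 14 the difference was 0.68 and passed (limma, adjusted p = 0.0106). The spot of C1qa on Control 4 was marked as an outlier by the scanner software, and with such spots left out the difference was 0.40 (limma, adjusted p = 0.102). With the ratio of the scanner software it was 1.19, far larger, and did not pass (limma, adjusted p = 0.558).

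C1qb read 2.58, 2.16, 2.84, 2.09 and 2.35 in the controls and 2.85, 2.49, 3.23, 2.57 and 3.19 in the High dams, in the order above. High 60, 63 and 65 lay above every control, and High 62 and 64 among them. Low (2.04 to 2.67) and Medium (2.18 to 2.60) overlapped the controls. The High mean was 0.46 ± 0.16 (SE) above Control, 1.38-fold (limma, adjusted p = 0.144). C1qc read 2.54, 2.42, 2.87, 2.37 and 2.33 in the controls and 2.79, 2.69, 2.93, 2.67 and 2.58 in the High dams. The groups overlapped through Control 14 alone, and the difference was 0.22 ± 0.10 (SE), 1.17-fold (limma, adjusted p = 0.254). On each of the 5 slides that held both groups, the High dam lay above the control for all 3 chains, by 0.27 to 1.01 for C1qa, 0.27 to 0.84 for C1qb and 0.05 to 0.31 for C1qc.

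The separate channels of the C1q probes showed a pattern that the ratio hides. In scanner units, the Cy5 lung signal of C1qc was 5525, 4533, 5610, 3544 and 5139 in the controls. In High 62, 63 and 65 it was 10171, 11593 and 11356, but in High 60 and 64 it was 5305 and 5231. The other 17 arrays of the study, those of High 60 and 64 included, spanned 3544 to 5610, so 3 of the 5 High dams stood clear of every other dam. C1qa did the same, with 3816, 4741 and 4315 in High 62, 63 and 65 against 1289 to 2251 on the other 17 arrays. C1qb read 2408, 2419.5 and 2222 in the same dams against 797.5 to 1327.

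On these 3 arrays the reference channel of the same spots was high as well. The Cy3 signal of C1qc was 645, 708.5 and 958.5 in High 62, 63 and 65, against 261 to 433 on the other 17 arrays, although the reference RNA was common to all arrays. For C1qb it was 157 in High 62 and 106 in High 63, with High 65 just below, against 66 to 93. For C1qa it was 142, 149.5 and 188, and among the other 17 arrays only the marked spot of Control 4, at 181, came near. What raised the Cy3 signal of these spots was not tested. On the other 17 arrays, the normalised Cy3 and Cy5 signals had a Pearson r of 0.68 and a Spearman rho of 0.58 for C1qc, 0.46 and 0.55 for C1qa, and 0.29 and 0.15 for C1qb. For the other genes of the set, Pearson r on these arrays ran from 0.47 (Serping1) to 0.88 (C1ra), so the relation was not particular to C1q. Over all 20 arrays r was 0.93 for C1qc, 0.77 for C1qa and 0.78 for C1qb. Over all tested probes its median was 0.65 and its 95th percentile 0.92. These values describe points that share slides and the scan.

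**Figure D2:**
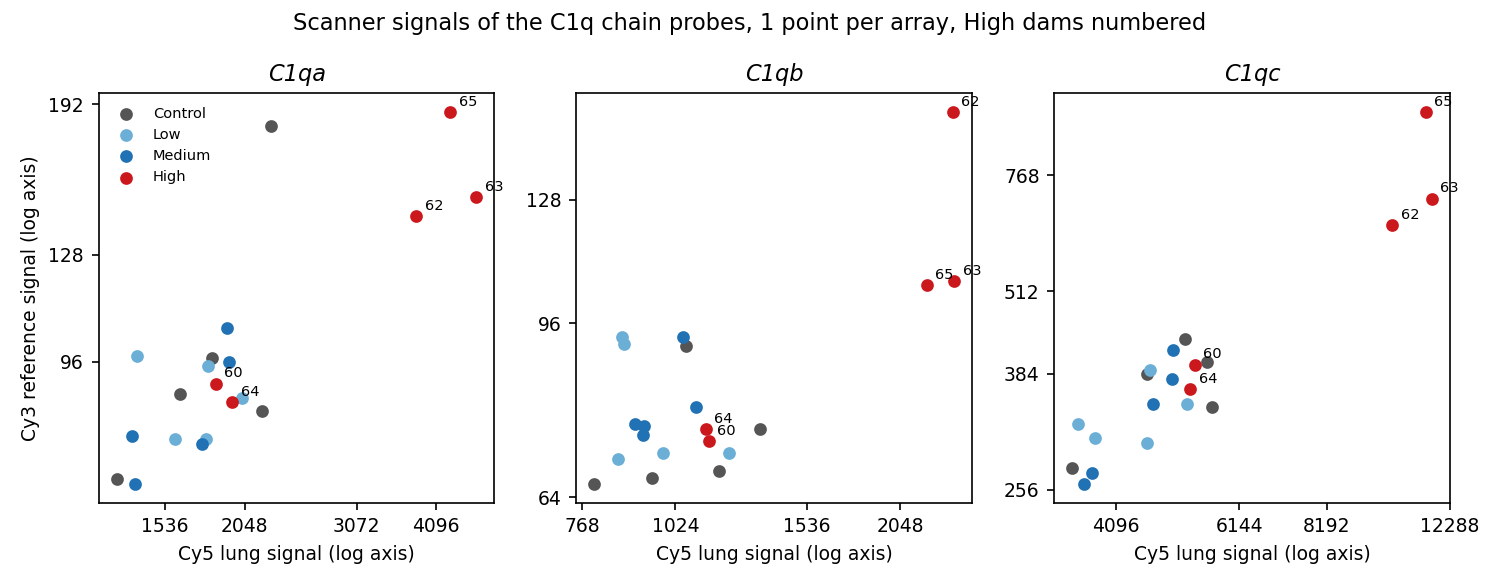
Median scanner signal of the lung (Cy5, horizontal) and the reference (Cy3, vertical) for the C1q chain probes on each of the 20 arrays, both on log axes; colours are dose groups and numbers name the High dams. High 62, 63 and 65 stand apart in both channels (C1qc: Cy5 10171 to 11593, Cy3 645 to 958.5), while High 60 and 64 lie among the other dams.

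With the Cy5 channel used alone, after background correction and quantile normalisation between arrays, the High mean lay 0.94 ± 0.23 (SE) above Control for C1qa, 0.88 ± 0.21 for C1qb and 0.90 ± 0.20 for C1qc on the log2 scale. These are 1.91-fold, 1.84-fold and 1.86-fold, and for C1qc far above the 1.17-fold of the ratio. None passed over all probes (limma, adjusted p = 0.188, 0.188 and 0.147), where 24 probes did (0.0796%). At an unadjusted p under 0.05, C1qa, C1qb, C1qc, C4b and both C2 probes were higher in Cy5, against 1.86% of all probes. The same fit of the Cy3 channel alone, made after the data had been seen, gave 0.70 ± 0.21 (SE) for C1qc (limma, adjusted p = 0.751), 0.27 ± 0.11 for C1qb (0.981) and 0.22 ± 0.19 for C1qa (1). In that channel no probe of the array passed by limma, and 1.73% were higher at an unadjusted p under 0.05. The Low and Medium groups showed little of this in Cy5: C1qc differed from Control by 0.03 ± 0.20 (SE) and 0.06 ± 0.20.

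The proteases C1r and C1s gave the one call of the set. It is given as C1ra, with the limit on C1rb stated above. The other C1r probe did not pass, nor did the mean of both (below). C1r is the protease that C1q binding activates first. Its probe given as C1ra read 0.39, 0.34, 0.56, 0.29 and 0.32 in Control 4, 7, 14, 15 and 18. High 60, 62, 63, 64 and 65 read 0.67, 0.79, 0.92, 0.51 and 0.86. All High dams but High 64 lay above the highest control. The probe given as C1ra rose 1.29-fold at the high dose, by 0.37 ± 0.08 (SE) on the log2 ratio scale, with a 95% interval of 0.20 to 0.54 (limma, adjusted p = 0.0305). Within slides the High dam lay above the control by 0.22 to 0.53, on 5 of 5 slides. The call was lost without any 1 of Control 7, 15 or 18 or High 62, 63 or 65, with adjusted p of 0.0623 to 0.0847 (limma) and differences of 0.33 to 0.36. It was also lost when the ratios were rebuilt from the spot files (0.38, limma, adjusted p = 0.0926) or taken from the scanner software (0.38, limma, adjusted p = 0.161). In the rebuilt ratios Low 27 had a slope of 0.683 on the other arrays, against 0.964 to 1.07 for the rest. Refitting its background brought that slope to 1, and the call was still lost (0.38, limma, adjusted p = 0.0529). In Cy5 alone C1ra differed by 0.23 ± 0.14 (SE), and in Cy3 by -0.13 ± 0.14 (limma, adjusted p = 1 for both).

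For C1ra, neither Low nor Medium passed against the controls. Low dams read 0.68, 0.60, 0.34, 0.50 and 0.47 in Low 25, 27, 28, 31 and 36, and Medium dams 0.54, 0.35, 0.22, 0.47 and 0.49 in Medium 46 to 50. The differences from Control were 0.14 ± 0.08 (SE, limma, adjusted p = 0.74) and 0.03 ± 0.08 (adjusted p = 0.885). High minus Medium was 0.34 ± 0.08 (SE), with 4 of 5 High dams above every Medium dam, and did not pass (limma, adjusted p = 0.156). There 27 probes of the array passed (0.0896%), none of the set. At an unadjusted p under 0.05, 3 of the 11 were higher in High than in Medium, against 3.96% of all probes, and 8 lay above 0, against 44.2%. The C1r probe of AF459018 ran from -0.49 to -0.13 in controls and from -0.44 to 0.08 in High dams, a difference of 0.09 ± 0.10 (SE, limma, adjusted p = 0.71). High 63 and 62 were the highest High dams for this probe and High 64 the lowest, and its High dam lay above the control on 4 of 5 slides. Whether the 2 probes differ in their response was not tested. With the values of both averaged the difference was 0.23 (limma, adjusted p = 0.144).

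C1s1, the protease that cleaves C4 and C2, read 0.29, 0.29, 0.13, -0.05 and 0.15 in the controls and 0.24, 0.44, 0.56, 0.19 and 0.71 in the High dams. High 62, 63 and 65, the dams with high C1q signals, lay above every control, and High 60 and 64 among them. The mean difference was 0.26 ± 0.10 (SE), 1.20-fold (limma, adjusted p = 0.162). Its second probe read -0.34, 0.22, 0.41, -0.38 and 0.07 in the High dams, with the same 3 dams on top, and controls ran from -0.23 to 0.07. The mean of that probe differed by 0.09 ± 0.13 (SE, limma, adjusted p = 0.791). For both probes the spread among High dams, with SDs of 0.22 and 0.35, was wider than among controls, with SDs of 0.14 and 0.12.

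The substrates C4b and C2 lay above the controls on average at every dose, and none of these differences passed. C4b, which supplies the fragment that anchors the enzyme to a surface, read 3.06, 2.81, 3.68, 2.64 and 2.68 in the controls and 3.56, 3.13, 3.52, 3.53 and 3.32 in the High dams. Every High dam lay above 4 of the controls and below Control 14. Low dams ran from 3.06 to 3.57 and Medium dams from 3.1 to 3.74. The differences from Control were 0.28 ± 0.17 (SE) at Low, 0.40 ± 0.17 at Medium and 0.44 ± 0.17 at High (limma, adjusted p = 0.741, 0.302 and 0.187). Without Control 14 the High difference was 0.61 and passed (limma, adjusted p = 0.0394).

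C2, the protease of that enzyme, was read by 2 probes. The brighter one read 3.00, 2.86, 3.46, 2.77 and 2.77 in the controls, 3.62, 3.29, 3.42, 3.53 and 3.25 in the Low dams, and 3.32, 3.04, 3.47, 3.76 and 3.79 in the Medium dams. High dams read 3.70, 2.80, 3.34, 3.41 and 3.42. With the exception of High 62, each of the 15 exposed dams lay above 4 of the 5 controls, and Control 14 lay among the exposed. The differences were 0.45 ± 0.16 (SE) at Low, 0.50 ± 0.16 at Medium and 0.36 ± 0.16 at High (limma, adjusted p = 0.622, 0.203 and 0.255). The second probe gave 0.41 ± 0.13 (SE), 0.40 ± 0.13 and 0.26 ± 0.13 (limma, adjusted p = 0.597, 0.207 and 0.314). Low and Medium each had 1 call among all probes (0.00332% for either), and none in the set. Differences above 0 were found for 10 of the 11 probes at Low and 9 at Medium, against 50.6% and 53.4% of all probes. At an unadjusted p under 0.05, both C2 probes were higher at Low, against 3.47% of all probes, and both C2 probes and C4b at Medium, against 8.11%. Markers of liver cells, a main source of plasma C2 and C4, were also higher at Low: 8 of 10 had an unadjusted p under 0.05 and none passed after adjustment by limma. Their list mean was 0.78 to 2.54 in Low, 0.68 to 2.18 in Medium and 0.26 to 1.03 in control dams. In addition, 4 and 5 of 7 mesothelial markers were higher at Low and Medium at an unadjusted p under 0.05, with none passing after adjustment. The part of either list in the C2 and C4b values was not tested. High minus Medium was -0.14 ± 0.16 (SE) for C2 and 0.04 ± 0.17 for C4b (limma, adjusted p = 0.813 and 0.96).

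**Figure D3:**
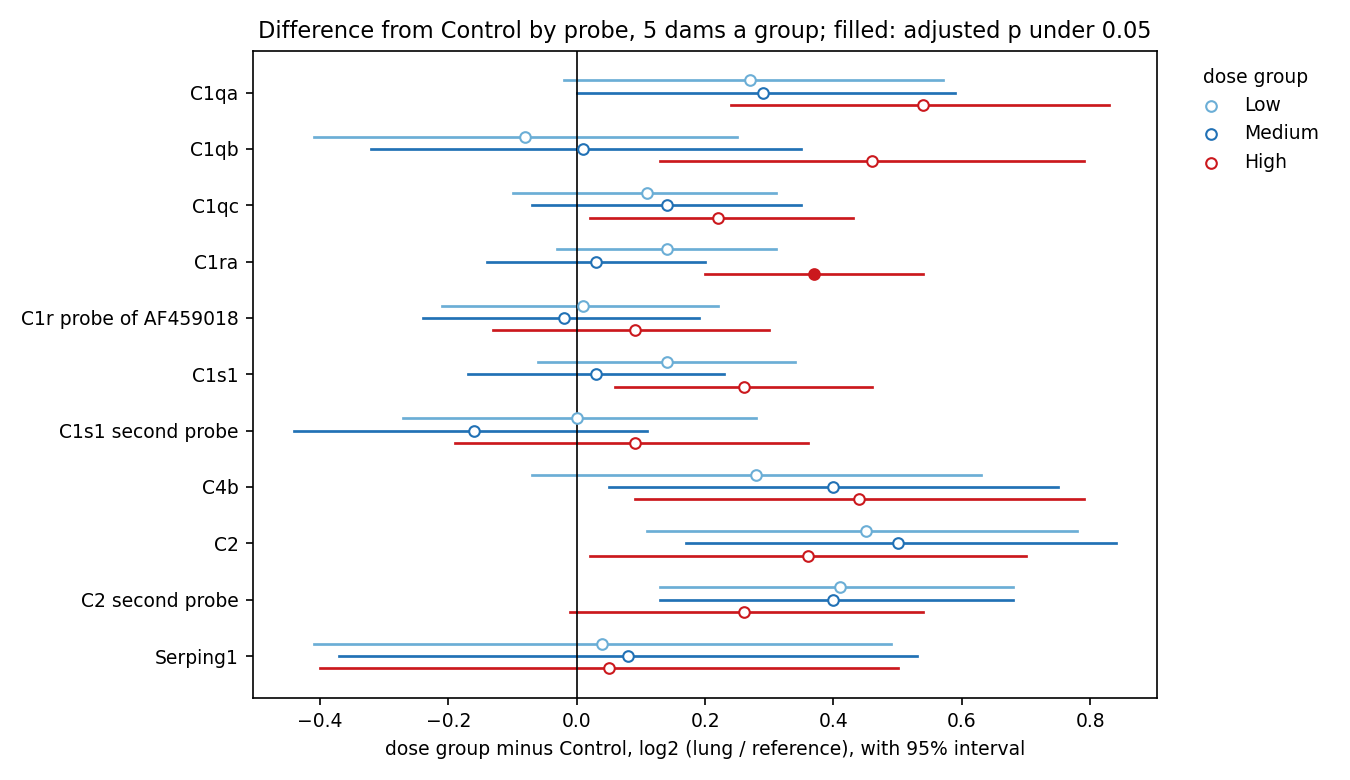
Difference of each dose group from Control in log2 ratio, with the 95% interval from limma (5 dams a group), for all 11 probes; filled points have an adjusted p under 0.05. The 3 groups share the same controls; C1ra at High (0.37) is the only filled point, C4b and the first C2 probe lie at 0.28 to 0.50 at every dose, and Serping1 lies at 0.04 to 0.08.

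Serping1, the inhibitor of C1r and C1s, lay near the controls at every dose. Controls read 3.33, 3.19, 4.22, 3.65 and 3.30, and High dams 3.84, 2.99, 3.92, 3.76 and 3.45. Low dams ran from 3.06 to 3.95 and Medium dams from 3.08 to 4.04, so all groups overlapped. The differences were 0.04, 0.08 and 0.05 ± 0.22 (SE for each) at Low, Medium and High (limma, adjusted p = 0.979, 0.894 and 0.929). The 95% interval at High ran from -0.40 to 0.50, so a difference as large as that of C1ra was not detectable for this gene. The sign of the High difference was not stable: it was -0.03 without Control 7 or High 63, -0.01 without Control 18 or High 60, and -0.06 in Cy5 alone.

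With the 4 groups taken as equally spaced steps, no probe of the set passed, against 521 of all probes (1.73%). At an unadjusted p under 0.05, 7 of the 11 sloped upward, against 9.04% of all probes. C1ra had a slope of 0.10 ± 0.03 (SE) log2 units per step and C1qa 0.16 ± 0.04 (limma, adjusted p = 0.0534 and 0.0655). C2 had 0.11 ± 0.05 (adjusted p = 0.25) and Serping1 0.02 ± 0.07 (0.912). Without Control 14, C1qa, C1ra and C4b passed this trend (limma, adjusted p = 0.0127, 0.0417 and 0.0327). C1ra also passed it without Low 25, Medium 48 or High 64 (limma, adjusted p = 0.0493, 0.0412 and 0.0261).

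Dams of the same group differed from each other, and several members varied together among them. After removal of group means, 28 pairs of genes were compared over the 20 dams in log2 ratio. Of these, 12 had an adjusted p under 0.05 by both Pearson and Spearman permutation tests. Dams were permuted within groups without regard to slide. The share of other gene pairs that would pass was not computed, and genes outside the set followed members as closely or more closely (below). The count is thus no result about the pathway. C2 and C4b, which share a stretch of chromosome 17, had a Pearson r of 0.86 (adjusted permutation p = 0.00056), a Spearman rho of 0.91 (0.0011), and an r of 0.85 without the 2 dams farthest from the median. C1qc and C4b had an r of 0.89 (adjusted permutation p = 0.0013) and a rho of 0.80 (0.0035), and 0.78 without such dams. C1qb and C1ra had an r of 0.77 (adjusted permutation p = 0.0033) and a rho of 0.75 (0.0063), and 0.69 without such dams. For C2 and Serping1 the r was 0.81 (adjusted permutation p = 0.0041), the rho 0.77 (0.0063), and 0.70 without such dams. In the lung channel alone over the same 20 arrays, r was 0.70 for C2 and C4b but 0.31 for C1qc and C4b, 0.13 for C1qb and C1ra and 0.17 for C2 and Serping1. C1s1 stood apart, with r between -0.32 and 0.54 to the other genes and no pair that passed by both tests.

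In Cy5 signals alone, the highest correlations lay among the C1q chains and between the 2 proteases. On the 17 arrays other than High 62, 63 and 65, with group means removed, r was 0.95 between C1qa and C1qc, 0.92 between C1qb and C1qc and 0.84 between C1qa and C1qb. It was 0.79 between C1ra and C1s1 and 0.72 between C4b and C2, while C4b also went with C1qb (0.76). Between the C1q chains and either protease it lay between -0.02 and 0.15. Over all 20 arrays it was 0.01 to 0.13 between the C1q chains and C1ra, but 0.26 to 0.38 between the chains and C1s1. On the 17 arrays Serping1 had negative r to the proteases it inhibits, -0.72 to C1ra and -0.65 to C1s1. With the 3 arrays included these were -0.61 and -0.29, and in the ratio 0.21 and -0.32, so the sign for C1ra turned with the measure. These values are descriptions over dams that share slides and one normalisation, and the 3 arrays were left out after their values had been seen.

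**Figure D4:**
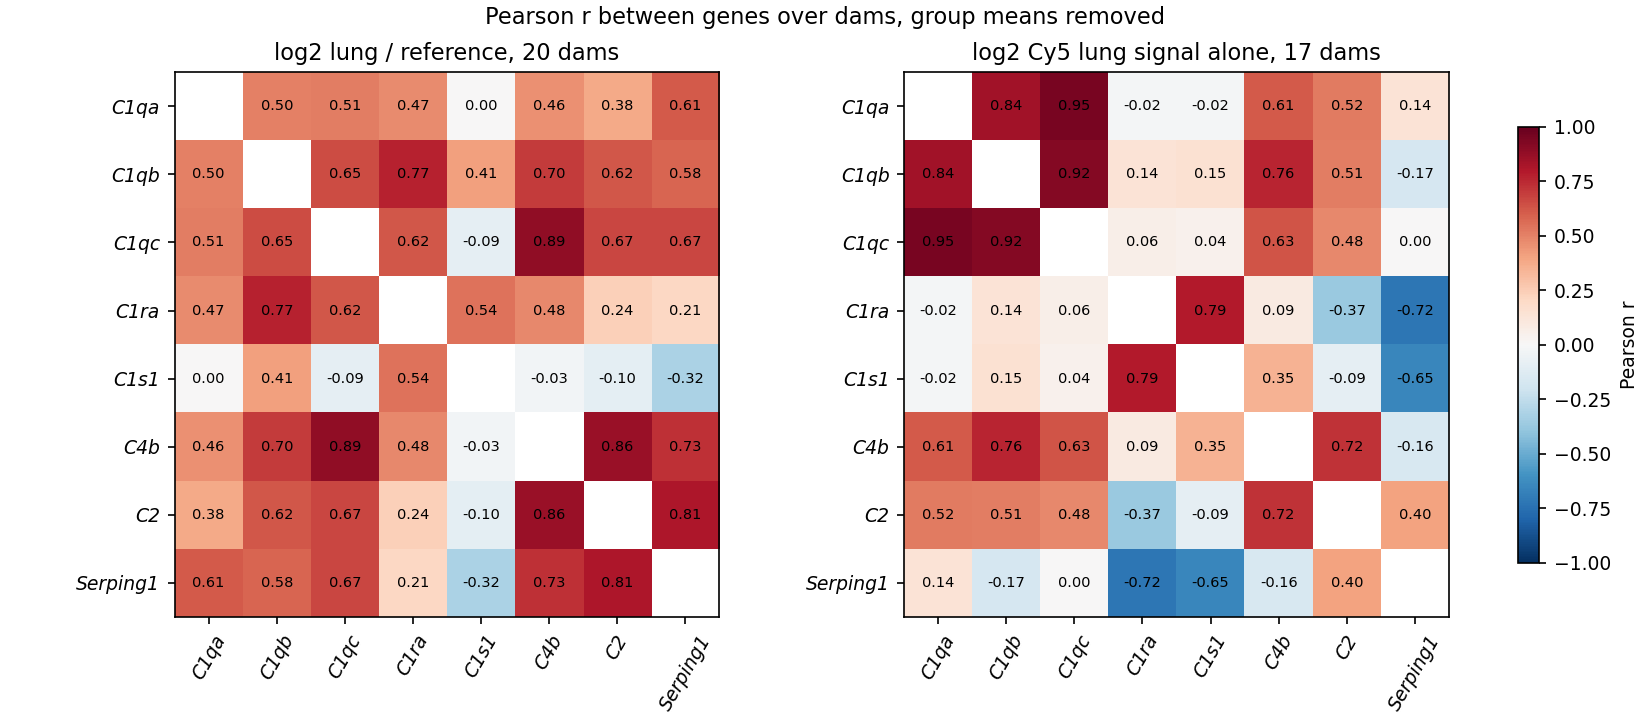
Pearson r between each pair of genes over dams after removal of group means; left, log2 ratio of lung over reference over 20 dams, right, log2 Cy5 signal alone over the 17 dams other than High 62, 63 and 65. In the right panel the C1q chains (0.84 to 0.95) and C1ra with C1s1 (0.79) stand out, and Serping1 is negative to C1ra (-0.72), which the left panel does not show (0.21).

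For each gene, the array was searched for the genes whose log2 ratio followed it most closely over the 20 dams, group means removed, among 15612 named genes outside the set. Serping1 went with Ccm2l (r = 0.95), Vwf (0.94) and Gpihbp1 (0.94), the last 2 being products of endothelium. C1qc went with Cldn18 (0.93), a tight junction protein of alveolar epithelium, Ctsh (0.92) and the class II antigen chain H2-Ab1 (0.92). C4b went with Ctsh (0.91), Rarres2 (0.87) and Lgi3 (0.86), and C2 with Rarres2 (0.91), Krt23 (0.90) and Maob (0.89). C1ra went with Folr2 (0.86), a folate receptor of tissue macrophages, Igkv4-55 (0.81) and Fam118b (0.77). C1qb went with Fam118b (0.85), Gbp2b (0.84) and Folr2 (0.82), and C1qa with Flna (0.83), Pcdhb9 (0.82) and Coro7 (0.82). C1s1 went with the matrix protease Mmp2 (0.85), Pla2g6 (0.82) and Olfml2b (0.81). These are the highest of many values, so no test is attached. They were taken in the ratio only, and whether they hold in the lung channel alone was not tested. With the 2 farthest dams left out, Serping1 and Ccm2l kept an r of 0.94, while the r of C1qa and Flna was 0.56.

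Other parts of the complement system were counted by lists at the high dose. Over all 30143 probes, 211 (0.7%) were called higher and 191 lower. A single call in a list is given as that of 1 gene, not of the list. The trigger list held 4 tested genes of antibody chains and pentraxins, and 1 rose. This was Jchain, which joins polymeric antibody (1.78 ± 0.36 SE on the log2 ratio scale, limma, adjusted p = 0.0197). Ighg1, an antibody heavy chain, gave 0.85 ± 0.23 (adjusted p = 0.0739). The heavy chain Ighm gave -0.03 ± 0.23 and the pentraxin Ptx3 0.11 ± 0.08 (limma, adjusted p = 0.968 and 0.557). The median of the list was 0.48. Of 7 tested genes of C3 and the alternative pathway, 1 rose: C3 itself, the target of the classical enzyme (0.71 ± 0.15 SE, limma, adjusted p = 0.0207), while Cfb gave 0.38 ± 0.13 (0.141) and the list median was -0.01. None of 8 lectin pathway genes, which feed the same substrates C4 and C2, passed (median 0.07), and Colec10 and Fcna gave -0.31 ± 0.10 and 0.91 ± 0.44 (limma, adjusted p = 0.128 and 0.29). None of 4 terminal pathway genes passed (median 0.16), with C7 at -0.32 ± 0.17 and C8g at 0.37 ± 0.21 (limma, adjusted p = 0.327 and 0.363).

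Of 13 regulators that act after C1, 1 fell: Cd59b, a membrane inhibitor of the terminal complex, by 0.33 ± 0.07 (SE, limma, adjusted p = 0.0246). Cd55b, a membrane inhibitor of the C3 enzymes, gave -0.23 ± 0.06 (adjusted p = 0.0655), and the median was -0.14. Of 17 receptors and C1q binding proteins, 1 rose: C3ar1, the receptor of the C3a fragment (0.43 ± 0.08 SE, limma, adjusted p = 0.00898), and Lilrb4a gave 0.41 ± 0.17 (0.218), with a median of -0.01. None of 10 genes of the C1q/TNF superfamily outside complement passed (median -0.06), with C1qtnf7 at -0.25 ± 0.09 and C1qtnf1 at -0.21 ± 0.08 (limma, adjusted p = 0.144 and 0.165). The 2 tested paralogs, C1rl and C4a, gave 0.06 and 0.00. Of 17 interferon gamma genes, a setting in which C2, C4b and Serping1 are known to be induced, 1 fell, Ifng itself (-0.55 ± 0.11 SE, limma, adjusted p = 0.0192), none rose, and the median was 0.11. Cxcl10, a chemokine of the same response, gave 0.91 ± 0.23 and missed the threshold narrowly (limma, adjusted p = 0.05 after rounding). At Low and Medium no gene of these lists passed.

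Each of these list calls at High was lost under some alternatives. With ratios rebuilt from the spot files, Jchain, C3, Cd59b and Ifng did not pass (limma, adjusted p = 0.0784, 0.102, 0.387 and 0.361). With the Low 27 background refitted Jchain and C3 passed, and Cd59b and Ifng did not (limma, adjusted p = 0.136 and 0.0714). With the scanner ratio Jchain, C3, Cd59b and Ifng were lost again (limma, adjusted p = 0.123, 0.1, 0.605 and 0.543). C3ar1 passed in 34 of 36 alternatives, and was lost with the scanner ratio and in Cy5 alone (limma, adjusted p = 0.0638 and 0.169). In Cy5 alone Cd59b differed by -0.04 and Ifng by -0.31 (limma, adjusted p = 1 for both). Leaving out Control 15 or Control 18 ended the call of each of Jchain, C3, Cd59b and Ifng (limma, adjusted p = 0.0535 to 0.0729). The same held without High 62 for Jchain and Cd59b (limma, adjusted p = 0.0576 and 0.0705), without High 63 for C3 and Ifng (0.0539 and 0.0502), and without Control 7 for Cd59b (0.0566).

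Cell type markers that moved at the high dose are given beside these values. Single markers are named because they passed, apart from some of the T and natural killer cell list. Of all 30143 probes, 211 (0.7%) were called higher and 191 lower. Jchain stands in both a pathway and a marker list. Of 13 general macrophage markers 1 rose, Aif1 (0.41 ± 0.10 SE, limma, adjusted p = 0.0406), and the list mean was 1.29 to 1.57 in High dams and 1.1 to 1.6 in controls. Of 15 markers of interstitial or monocyte-derived macrophages 2 rose, Trem2 (0.96 ± 0.13 SE) and Ms4a7 (0.95 ± 0.17), with list means of 1.90 to 2.09 and 1.76 to 2.25. Of 11 alveolar macrophage markers 1 fell, Siglecf, by 0.93 ± 0.15 (SE), with list means of 2.85 to 3.16 and 3.00 to 3.62. Of 10 B and plasma cell markers 2 rose, Jchain and Tnfrsf17 (0.82 ± 0.17 SE), with list means of -0.38 to 0.56 and -0.36 to 0.01. The T and natural killer cell list held 3 falls among 11 (Prf1, Klrb1c and Gzmb). Its list means were 1.05 to 1.29 and 1.36 to 1.60, which do not overlap. How often list means separate in this way was not tested. The T cell markers Cd3d, Cd3e, Cd3g, Cd4 and Cd8a differed by only -0.09 to 0.07, and none passed. Ncr1 and Gzma gave -0.46 ± 0.11 and -0.55 ± 0.15 (limma, adjusted p = 0.0521 and 0.0693). Neutrophil markers held 1 fall among 9, Camp, with list means of 2.03 to 2.71 and 2.55 to 3.52. None of the 9 differences lay above 0, against 48.1% of all probes, and their median was -0.35. The median was 0.21 for general, 0.01 for interstitial or monocyte-derived and -0.04 for alveolar macrophage markers. It was 0.05 for B and plasma cell markers and -0.22 for T and natural killer cell markers. No hepatocyte (10), fibroblast (12), endothelial (8), lung epithelial (10), mesothelial (7) or cardiac (8) marker passed. The hepatocyte list ran from 0.31 to 1.88 in High dams and 0.26 to 1.03 in controls, with Ttr not above background. Trem2 passed in all 36 alternatives run, Ms4a7 in 34, Siglecf in 33 and Prf1 in 32. Klrb1c passed in 29, Tnfrsf17 in 28, Gzmb in 27, Camp in 25 and Aif1 in 21. Of the 36, 20 left out 1 dam, so these counts say little about processing. Siglecf, Prf1, Klrb1c, Tnfrsf17, Gzmb, Camp and Aif1 were each lost on rebuilt ratios, with the scanner ratio and in Cy5 alone. With Low 27 refitted only Siglecf of these passed. With the scanner ratio Siglecf gave -0.47, Prf1 -0.16 and Klrb1c -0.11 (limma, adjusted p = 0.834, 0.894 and 0.972), and Ms4a7 was lost too (0.0638). With 1 dam left out, Klrb1c was lost without Control 15, Tnfrsf17 without Control 15, Control 18 or High 62, and Gzmb without any of these or High 63. Camp was lost without Control 7, 14 or 18 or High 62, 64 or 65, and Aif1 without Control 4, 7, 15 or 18, Low 31, or High 62, 63 or 65. The part of these markers in the complement values was not tested.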

How the data were processed

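Lung RNA of 20 dams was measured on 2-colour oligonucleotide arrays, 1 array per dam, in 4 groups of 5 taken from the sample titles and dose labels. The deposited value table holds log2 ratios of lung over reference, since its columns had correlations of 0.962 to 0.993 with log2 Cy5 over Cy3 of the same arrays; the step by which the authors normalised it was not given in the sources used here, and its column medians lay between -0.0500 and -0.0315. Per the file headers, spot intensity values and log10 ratios came from Agilent's scanner software, version 10.1.1.1 for Medium 49 and 50 and 9.5.1.1 for the other 18. Positions are those of mm7, per the headers of the 18. Spots of a probe were averaged. Of 41174 probes, 22951 were named by accession, 6659 by symbol and 3109 by synonym through the RefSeq gene table, and 8455 were left unnamed.

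Probes whose Cy5 signal was well above background on at least 3 arrays of a group were kept (30143). Group means were fitted to all 20 arrays with limma 3.58.1 in R 4.3.3, with Benjamini-Hochberg adjustment over all kept probes and a threshold of 0.05; the fit was first tested on simulated data. Low, Medium and High were each set against the same 5 controls, so these comparisons are not independent. Correlations between members were tested with 100000 permutations over dams. Per the labels, each array held RNA of 1 dam. Precision is limited by the 5 arrays per group.

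Text names all 8 genes with every probe, the brightest standing for a gene. For each pathway list it names the 2 genes with the smallest p at High, and for the triggers all 4. For each gene it names the 3 others of highest correlation. The genes, lists and tests were chosen with earlier results of these data known. Alternatives covered the source of the ratios (normexp with an offset of 50 and loess, the scanner ratio, Cy5 alone), centring, scaling, dim probes, outlier spots, probes per gene, slide, scan day and each dam left out.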

Additional observations from a re-analysis of the deposited data

Results flagged for a closer look

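C1qa in High 63 read 3.68 on the log2 ratio scale, against 3.23 to 3.33 in the other 4 High dams. The gap to its nearest neighbour, as a share of the range of the group, exceeded the 95% limit for 5 samples (0.71). It was 1 of 44 groups of 5 values examined, and chance gives about 1 such group in 20. Without this dam C1qa lay 0.46 above Control (limma, adjusted p = 0.133).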

How the results depend on the processing

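The 1 member call at High (C1ra) became 0 with normexp and loess, with or without the Low 27 background refitted, with the scanner's log10 ratio, with Cy5 alone, with the mean of a gene's probes and with only the 2 groups compared. It became 2 with slide as a fixed or random block, where C1qa passed too (limma, adjusted p = 0.0497 and 0.029), and 0 to 3 with 1 dam left out. C1ra passed in 24 of 36 alternatives, with adjusted p of 0.0138 to 1. Member calls for the trend (0) became 1 without the dim filter, 2 with slide as a random block and 0 to 3 with 1 dam left out; for High against Medium (0) they became 0 to 1 (C1ra, without High 64, limma, adjusted p = 0.0469), and at Low and Medium they stayed at 0.

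Counts over all probes moved more. For High (402) they were 18 with normexp and loess, 77 with the refit, 13 with the log10 ratio, 258 scaled, 24 in Cy5, 657 without the dim filter, 212 with it on all 20 arrays, 213 for the brightest probes, 1170 and 1283 with slide fixed and random, 812 with scan day, 58 with 2 groups, and 108 (without Control 15) to 395 (without High 60) with 1 dam left out. For the trend (521), in the same order, they were 18, 70, 11, 292, 18, 879, 262, 275, 1047, 1398 and 819, and 163 to 605 with 1 dam left out. For High against Medium (27) they were 8 with normexp and loess, the log10 ratio or slide fixed, 13 and 7 without and with the stricter dim filter, 4 with scan day, 1 with 2 groups and 0 without the slide of 2 Medium arrays, and 6 to 118 with 1 dam left out. For Medium (1) they were 0 with normexp and loess, the log10 ratio, Cy5 or 2 groups, 4 without the filter, 2 with slide fixed and 1 to 6 with 1 dam left out. For Low (1) they were 0 with these and with the refit and slide fixed, 2 with slide random and 0 to 2 with 1 dam left out. The cause was not tested.

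The sign turned for Serping1 at High (-0.06 in Cy5; -0.03 to 0.22 with 1 dam left out, -0.01 without High 60), Cd55b (0.01 in Cy5), C1rl (-0.01 with the log10 ratio) and C4a (-0.01 to 0.02 with 1 dam left out, 0 without Control 18). Dam numbers are not shared between groups and pair nothing; slides 1 to 5 hold a Control, a Low and a High dam each, so slide served as the block (values above), with a consensus correlation of 0.186. All member probes were well above background in both channels on every array. The reference signal was nevertheless as low as 66 scanner units for C1qb in Control 15 and 69 for C1qa in Medium 49. Whether low reference signal limited these ratios was not tested.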
